A study of Rattus norvegicus with 86 samples.

Results

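*Rbks*, *Gpn1* and *Drc1* are protein-coding genes of rat chromosome 6 that lie in the same region, and the study took them up when it tested whether expression QTLs colocalize with loci for body traits mapped in another HS cohort. They were chosen by identifier, as ENSRNOG00000004710 (*Rbks*), ENSRNOG00000004941 (*Gpn1*) and ENSRNOG00000024905 (*Drc1*), and are 3 of the 17250 genes in the expression table of the prelimbic cortex (PL). Neither genotypes nor traits were analysed here. The rats were adult Heterogeneous Stock (HS) rats, an outbred population descended from the inbred strains WN/N, WKY/N, MR/N, M520/N, F344/N, BUF/N, BN/SsN and ACI/N. All were naïve to drugs and behavioural testing and lived in group housing, and the labels set them apart by sex and rat batch alone. Being outbred, the rats also differ in genotype. There were 80 kept rats (40 male and 40 female) with 1 library each, of which 14 were in batch 2 (3 females and 11 males), 23 in batch 3 (13 and 10), 26 in batch 4 (15 and 11), 1 female in batch 5 and 16 in batch 6 (8 and 8). The labels do not say what a rat batch was.

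*Rbks* encodes ribokinase, which phosphorylates free ribose so that it can enter the pentose phosphate pathway and nucleotide synthesis. *Gpn1* encodes a GPN-loop GTPase needed for the assembly of RNA polymerase II and its import into the nucleus. *Drc1* encodes a subunit of the nexin-dynein regulatory complex, which ties together the outer doublets of motile cilia and controls their beating. In the brain, motile cilia are carried by the ependymal cells that line the ventricles, so cilium genes in a dissected cortex sample are also markers of those cells. In bulk tissue, fewer cells of a type and less RNA per cell cannot be told apart.

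The sequences before the start sites show how differently the 3 genes are built at their 5′ ends, and each set of capitals marks letters discussed in the next sentences. All come from RefSeq on the GRCr8 build, read 5′ to 3′ on the strand of the gene, and give the 250 bases before the start.
Rbks (chr6:30467476-30467725, plus strand): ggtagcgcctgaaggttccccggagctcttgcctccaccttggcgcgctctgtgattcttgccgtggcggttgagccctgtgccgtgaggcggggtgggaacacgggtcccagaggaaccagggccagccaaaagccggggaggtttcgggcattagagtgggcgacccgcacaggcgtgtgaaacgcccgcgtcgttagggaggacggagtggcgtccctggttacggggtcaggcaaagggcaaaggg
Gpn1 (chr6:30685012-30685261, minus strand): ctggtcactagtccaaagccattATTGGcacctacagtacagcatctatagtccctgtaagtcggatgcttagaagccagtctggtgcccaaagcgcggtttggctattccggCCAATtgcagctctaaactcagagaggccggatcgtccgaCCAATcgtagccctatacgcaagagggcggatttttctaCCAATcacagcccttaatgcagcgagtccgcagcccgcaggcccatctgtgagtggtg
Drc1 (chr6:31779257-31779506, minus strand): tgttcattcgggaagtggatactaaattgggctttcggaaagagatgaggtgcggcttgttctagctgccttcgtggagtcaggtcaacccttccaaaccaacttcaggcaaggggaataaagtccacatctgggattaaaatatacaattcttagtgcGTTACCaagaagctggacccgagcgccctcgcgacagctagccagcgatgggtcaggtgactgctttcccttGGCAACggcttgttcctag

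In the *Gpn1* sequence the capitals mark CCAAT, the core of the site bound by NF-Y, on either strand. It occurred 4 times there, whereas 0.637% of 27457 rat promoters of the same length held at least 4 copies and 34.3% held at least 1. In the *Drc1* sequence the capitals mark 2 matches, on either strand, to a run of 6 letters made of GG or AG, then C or T, then AAC. These are letters of the half-sites bound by RFX factors, which are known regulators of cilium genes. At least 2 such matches were found in 5.94% of promoters and at least 1 in 30.6%. None of the marked matches overlapped another. The *Drc1* sequence also held CCAAT 1 time, and the *Rbks* sequence held neither motif. *Rbks* is shown because it starts back to back with *Babam2*, on the opposite strand, and 116 of the 300 bases in the promoter windows of the pair are shared. The GC content was 66% for *Rbks*, 54% for *Gpn1* and 50.8% for *Drc1*, beside a median of 52% over all promoters. The motifs were chosen after these sequences had been seen, and a match is a description of the letters and not of binding.

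The values were log2 of adjusted read counts plus 1, which the authors had scaled so that libraries had a common upper quartile. The depth behind them, recovered from the steps between the rounded counts, ranged from 10174405 to 32218170 reads per library with a median of 18231072. The cortical excitatory neuron gene *Neurod6* lay between 10.74 and 11.50 in every rat. No gene body in the RefSeq annotation overlapped *Rbks*, *Gpn1* or *Drc1*, and none of them had values identical to another gene in the table. Whether counting used strand is not given in the sources used here.

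*Drc1* was the gene of the 3 that separated the rat batches most. Its log2 value ran from 7.52 to 8.51 with a median of 8.24 in batch 2. In batch 3 it ran from 7.67 to 8.55 (median 8.09). The batch 4 rats covered 7.31 to 9.12 (median 8.40). Those of batch 6 lay between 8.40 and 9.15 (median 8.82), and the batch 5 rat was at 8.29. Batch 6 was thus the high group, and only 3 of 14 batch 2 rats and 2 of 23 batch 3 rats reached above its lowest rat. Batch 4 spanned both levels, with 13 of 26 rats below the lowest batch 6 rat and 11 of 26 above the highest batch 3 rat. In adjusted counts, the median rose from 271 in batch 3 to 450 in batch 6.

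The batches differed in *Drc1* by the moderated F-test of limma (adjusted p = 1.81e-07). This test called 62.4% of all genes, so that a call is common in these data. Batch 6 exceeded batch 3 by 0.69 ± 0.10 (log2 difference ± SE, adjusted p = 8.24e-08 by limma, where 49.9% of all genes were called). It exceeded batch 2 by 0.61 ± 0.12 (adjusted p = 2.43e-05, 38.3% called). Against batch 4 the difference was 0.40 ± 0.10 (adjusted p = 0.00917), in a comparison that called only 6.23% of genes. Batch 4 was above batch 3 by 0.29 ± 0.09 (adjusted p = 0.00634, 51.7% called). The differences of 0.21 ± 0.11 between batches 4 and 2 (adjusted p = 0.129, 37.2% called) and of -0.08 ± 0.11 between batches 3 and 2 (adjusted p = 0.731, 5.7% called) did not pass. With recovered depth as a covariate the difference between batches 4 and 2 was 0.30 ± 0.11 and passed (adjusted p = 0.0263 by limma). The mean of batches 4 and 6 was 0.45 ± 0.08 above the mean of batches 2 and 3 (adjusted p = 3.77e-07), a contrast in which 28.8% of genes were higher and 26.6% lower.

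*Gpn1* varied over a narrow range. Its log2 values were 9.19 to 9.52 in batch 2 (median 9.35) and 9.20 to 9.57 in batch 3 (median 9.42). Batch 4 rats covered 9.10 to 9.53 (median 9.28), those of batch 6 covered 9.13 to 9.58 (median 9.31), and the batch 5 rat was at 9.34. All batches overlapped, and batch 3 had the highest median. The F-test passed (adjusted p = 0.00185). Batch 4 was lower than batch 3 by a log2 difference of -0.14 ± 0.03 (adjusted p = 0.000208), and batch 6 was lower than batch 3 by -0.09 ± 0.04 (adjusted p = 0.0287). The other 4 pairs of batches did not pass, with adjusted p from 0.174 to 0.711. The mean of batches 4 and 6 was lower than that of batches 2 and 3, with a log2 difference of -0.08 ± 0.03 (adjusted p = 0.00754). It was -0.075 in males alone (adjusted p = 0.0713) and -0.096 in females alone (adjusted p = 0.129).

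*Rbks* rested on the fewest reads, with a median of 63 adjusted counts and a range of 29 to 112. On the log2 scale it ran from 5.61 to 6.48 in batch 2 (median 5.99) and from 5.70 to 6.82 in batch 3 (median 6.15). Batch 4 rats lay between 4.91 and 6.61 (median 6.0), batch 6 rats between 5.04 and 6.61 (median 5.88), and the batch 5 rat had 6.0. The lowest rats were in batches 4 and 6, but the batches overlapped over most of their range. The F-test did not pass (adjusted p = 0.133), nor did the mean of batches 4 and 6 minus that of batches 2 and 3, at -0.19 ± 0.09 (adjusted p = 0.0562). With recovered depth as a covariate both passed, at adjusted p = 0.0365 and 0.0111. Of the 6 pairs of batches only batch 6 against batch 3 passed, at -0.27 ± 0.12 (adjusted p = 0.0475). With depth as a covariate batch 4 against batch 3 passed too, at -0.29 ± 0.11 (adjusted p = 0.0189 by limma).

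**Figure D1:**
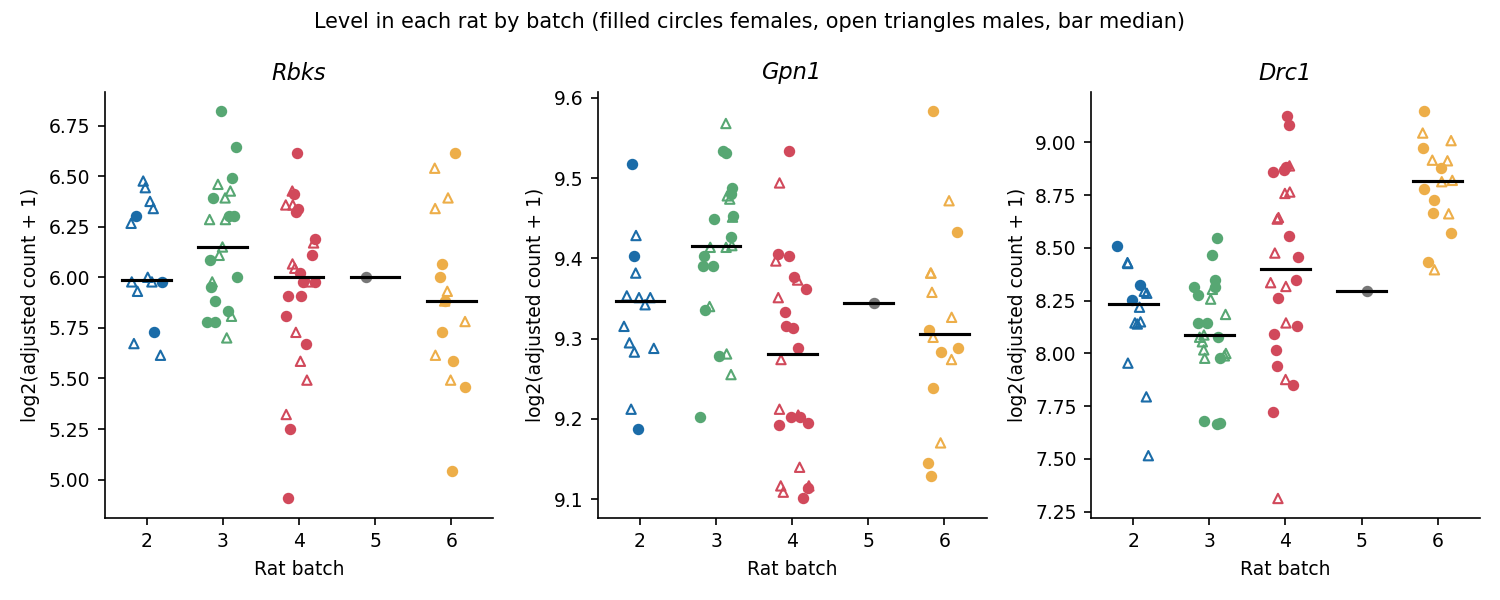
Log2 of the adjusted count plus 1 of *Rbks*, *Gpn1* and *Drc1* in each of the 80 rats (1 point per rat, filled circles females, open triangles males, bar the batch median) against rat batch. *Drc1* lies highest in batch 6 (8.40 to 9.15) and is most widely spread in batch 4 (7.31 to 9.12), while the batches overlap in *Rbks* and *Gpn1*.

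No sex difference passed for *Rbks*, *Gpn1* or *Drc1* in a fit with batch as a factor. Males minus females gave 0.05 ± 0.09 for *Rbks*, -0.01 ± 0.03 for *Gpn1* and -0.04 ± 0.07 for *Drc1* (log2 difference ± SE, adjusted p of 0.948, 0.964 and 0.952 by limma). This comparison called 0.365% of all genes. The sex difference within a batch ranged from -0.24 ± 0.21 (*Drc1*, batch 2) to 0.20 ± 0.18 (*Rbks*, batch 6). The test of a sex difference that varies between batches gave an adjusted p of 0.9999 for each gene, and called 0 of 17250 genes with limma (410 at an unadjusted p under 0.05, and 412 without a variance trend).

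The spread over rats also set the genes apart. The SD of the log2 value was 0.37 for *Rbks*, 0.12 for *Gpn1* and 0.40 for *Drc1*, and the highest rat exceeded the lowest by 3.77-fold, 1.40-fold and 3.57-fold in adjusted counts plus 1. Among 2340 genes whose mean log2 value was within 0.5 of that of *Drc1*, 93.3% had a smaller SD. For *Gpn1* this share was 9.68% of 2468 genes, and for *Rbks* it was 57.1% of 1248 genes. *Drc1* was therefore among the more variable genes of its level and *Gpn1* among the steadier ones.

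Rat batch accounted for 38.6% of the variance of *Drc1*, 20.9% of that of *Gpn1* and 8.15% of that of *Rbks*, and sex for 0.531%, 0.195% and 0.502%. Within batch and sex the SDs were 0.33, 0.11 and 0.37 for *Drc1*, *Gpn1* and *Rbks*. The recovered reads behind a value had a median of 321 for *Drc1*, 654 for *Gpn1* and 67.5 for *Rbks*, and Poisson counting of such numbers would give 6.21%, 27.0% and 25.2% of the variance within batch and sex. These shares cover counting error only and treat estimated counts as whole reads. In values with batch and sex removed, a mixture of 2 normal distributions did not lower the Bayesian information criterion against 1 distribution in any of the genes. The changes were -7.84, -8.49 and -5.30 for *Rbks*, *Gpn1* and *Drc1*, where a positive value would favour 2. Levels that differ between batches lie outside this fit.

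The spread of *Drc1* differed between batches. Its SDs were 0.27, 0.23, 0.45 and 0.21 for batches 2, 3, 4 and 6, and a Brown-Forsythe statistic with 100000 permutations gave p = 0.00039 (adjusted over the 3 genes, 0.00117). For *Gpn1* the SDs of 0.08, 0.09, 0.12 and 0.12 in the same order did not pass (permutation p = 0.11, adjusted 0.165), nor did 0.29, 0.30, 0.41 and 0.43 for *Rbks* (permutation p = 0.626).

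*Gpn1* and *Drc1* moved in opposite directions over rats, while no correlation of *Rbks* with either passed in the pooled values or with batch and sex removed. Over 80 rats Pearson's r between *Gpn1* and *Drc1* was -0.48 (two-sided permutation p = 2e-05) and Spearman's rho -0.50 (p = 1e-05, the smallest that 100000 permutations can give), both 0.00012 after adjustment over the 12 tests of the 3 pairs. With batch and sex removed, r was -0.46 (permutation p = 9e-05) and rho -0.44 (p = 0.00011), both 0.00033 adjusted. Without the 2 rats farthest from the median of *Gpn1*, the adjusted r was -0.42 and the pooled r -0.48.

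Within batches the sex-adjusted r of *Gpn1* and *Drc1* was -0.37 for batch 2 (permutation p = 0.19), -0.38 for batch 3 (p = 0.0758), -0.66 for batch 4 (p = 0.00032) and -0.15 for batch 6 (p = 0.584). It was negative in all 4 batches and passed only in batch 4, the batch with the widest spread of *Drc1*. In the 54 rats outside batch 4 the r with batch and sex removed was -0.26 and no longer passed (permutation p = 0.0633), while the pooled r was -0.39 (p = 0.00365), an alternative chosen after seeing the data. The relation within batches therefore rests on batch 4 for its call, and whether r differed between batches was not tested. Both sexes showed it, at -0.38 in males (permutation p = 0.043) and -0.56 in females (p = 0.00016).

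*Rbks* and *Gpn1* had a pooled r of 0.026 (permutation p = 0.82) and rho of -0.0072 (p = 0.95), and with batch and sex removed r was -0.098 (p = 0.418) and rho -0.16 (p = 0.177). Leaving out the 2 rats farthest from the median of *Rbks* gave -0.021 pooled and -0.14 adjusted. For *Rbks* and *Drc1* the pooled r was -0.085 (permutation p = 0.458) and rho -0.069 (p = 0.542), and the adjusted r was 0.11 (p = 0.387) and rho 0.16 (p = 0.172). These became 0.025 pooled and 0.21 adjusted without the same 2 rats. All adjusted p-values of both pairs were 0.354 or more. Sex-adjusted values within batches 2, 3, 4 and 6 ran from -0.32 to 0.23 for *Rbks* and *Gpn1* and from -0.070 to 0.44 for *Rbks* and *Drc1*. The highest of the latter, in batch 3, had a permutation p of 0.0366.

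**Figure D2:**
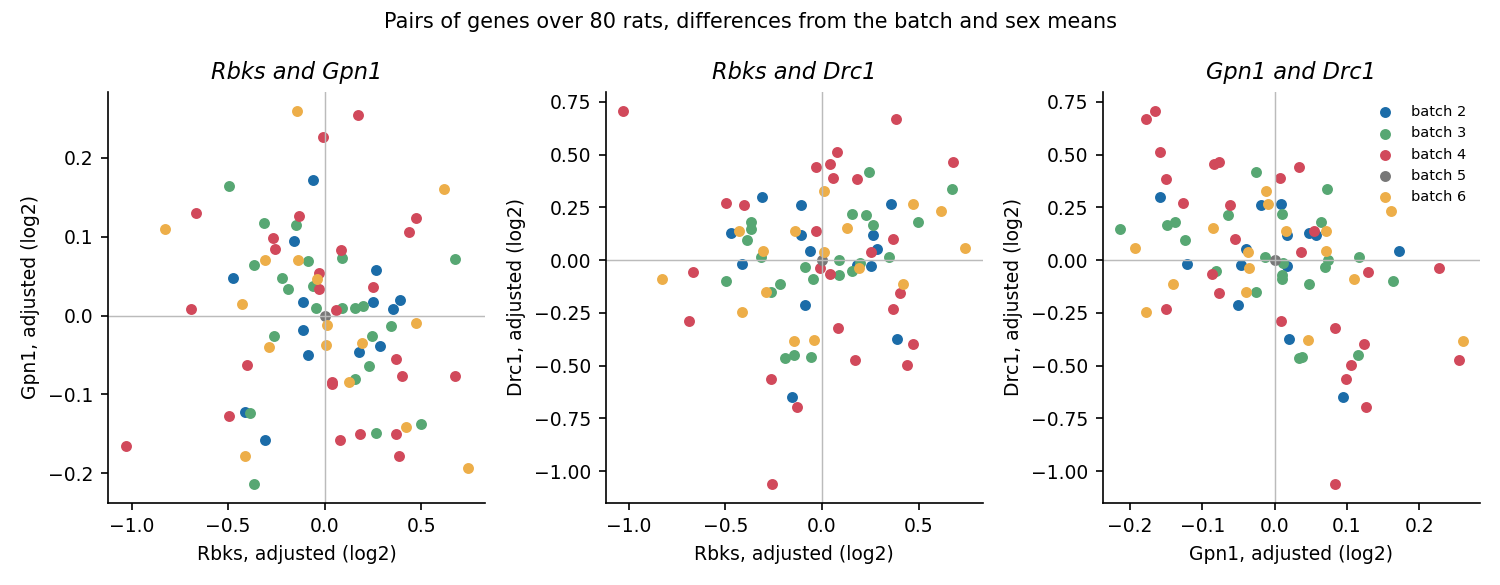
Each pair of genes over the 80 rats (1 point per rat, coloured by batch), as log2 differences from the batch and sex means on both axes. *Gpn1* and *Drc1* fall along a descending line (r = -0.46), with the batch 4 rats farthest apart, whereas *Rbks* shows r of -0.098 with *Gpn1* and 0.11 with *Drc1*.

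Library-wide variation moved with these values. The first principal component of the batch- and sex-adjusted table held 6.02% of its variance, and 23.1% of all genes had an r with it past 0.5 in size. As a description over 80 rats, r with this component was 0.69 for *Gpn1*, -0.46 for *Drc1* and 0.14 for *Rbks*. With the component also removed, r was -0.23 for *Gpn1* and *Drc1*, -0.27 for *Rbks* and *Gpn1* and 0.19 for *Rbks* and *Drc1*, with no test. With 20 principal components of the whole table and sex removed in place of batch, r was -0.46 (p = 0.000158 and 0.000348 by limma with either gene as the response, before adjustment over genes). In that setting only 5 genes of 17249 had a larger absolute r with *Gpn1* than *Drc1* had, against 1868 with batch and sex removed. *Rbks* and *Drc1* had r = 0.38 there (limma p of 0.00263 and 0.00313) and *Rbks* and *Gpn1* -0.26 (limma p of 0.0542 and 0.0464), and none of these passed after adjustment over all genes. Recovered depth had an adjusted r of 0.27 with *Rbks*, 0.016 with *Gpn1* and -0.29 with *Drc1*. For the share of a library's counts held by its top 10 genes, these values were 0.33, 0.11 and -0.051.

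Other genes of the region were taken in the order of the GRCr8 annotation. Of 66 protein-coding genes starting within 1 Mb of *Rbks*, *Gpn1* or *Drc1*, 22 could be paired with an identifier in the table, 19 beside the 3 genes. Names came only from genes in which the study had mapped an expression QTL in some brain region, so these neighbours are not a random sample of the region. Among them *Krtcap3* and *Pcare* were low, with mean log2 values of 0.78 and 4.38. In the F-test over batches 16 of the 19 passed, beside 62.4% of all genes. The mean of batches 4 and 6 was higher than that of batches 2 and 3 in 6 neighbours and lower in 8, beside 28.8% and 26.6% of all genes. The median difference was -0.08, beside 0.01 over all genes.

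With batch and sex removed, calls among the neighbours differed between the 3 genes. Of the 21 other named genes of the region, limma called 0 in the positive and 1 in the negative direction for *Rbks*, beside 0.533% and 0.0812% of all genes. For *Gpn1* it called 3 and 2, beside 17.2% and 18% of all genes. For *Drc1* it called 3 and 4, beside 10.7% and 7.65%. The counts for *Gpn1* were no higher than these shares of all genes would give among 21, and the others rest on few genes. The negative calls include *Drc1* for *Gpn1* and *Gpn1* for *Drc1*.

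*Babam2*, a subunit of a BRCA1-containing complex, was the neighbour most like *Gpn1* (r = 0.70, adjusted p = 5.04e-09 by limma) and the second by r of all genes with a mean log2 value of at least 5. Yet its r with *Rbks*, the gene with which it shares a promoter region, was 0.040 (adjusted p = 0.904). *Ppp1cb*, a catalytic subunit of protein phosphatase 1, ran against *Gpn1* at -0.53 (adjusted p = 9.32e-06), and *Slc30a3*, the zinc transporter of synaptic vesicles, with it at 0.53 (adjusted p = 1.44e-05). *Zfp512*, next to *Gpn1* among the named genes, had r = -0.064. The nearest named gene on the other side was *Rbks* itself.

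Within 1 Mb of *Rbks* the neighbour that passed was *Gtf3c2*, a subunit of the RNA polymerase III factor TFIIIC (r = -0.46, adjusted p = 0.0208 by limma). *Pcare* (-0.36) and *Trim54* (0.34) followed and did not pass (adjusted p of 0.0878 and 0.119). Within 1 Mb of *Drc1*, the largest values were 0.42 for *Cad*, the enzyme that starts pyrimidine synthesis (adjusted p = 0.00263), -0.39 for *Slc30a3* (adjusted p = 0.00466) and 0.34 for *Zfp513* (adjusted p = 0.02). Next to *Drc1*, *Otof* had r = 0.15 (adjusted p = 0.384) and *Hadhb*, a subunit of the mitochondrial trifunctional protein, -0.34 (adjusted p = 0.0278).

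After 20 principal components had been removed, more neighbours reached the top 5% of genes by absolute r with *Gpn1* and with *Drc1*, but not with *Rbks*. The median absolute r of the 21 with *Rbks* still went from 0.15 to 0.21. Over all genes it went from 0.11 to 0.091. The top 5% of genes by absolute r with *Gpn1*, those past 0.25, then included 12 of the 21 other named genes of the region (57.1%), beside 5.32% of the 3289 named genes of the table. With *Drc1* the top 5%, past 0.27, included 11 of 21 (52.4%), beside 5.56% of named genes. With *Rbks* it included 5 of 21 (23.8%), beside 5.2%. With batch and sex removed instead, the numbers for *Gpn1*, *Drc1* and *Rbks* were 1, 1 (which was *Gpn1*) and 6 of 21. They stand beside 4.5%, 4.53% and 4.41% of named genes, so for *Rbks* the share (28.6%) was above that of named genes in both settings. After 20 components no single gene passed limma after adjustment over 17249 genes, so this is a description of ranks without a test.

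Values of 4 neighbours after 20 components are given side by side. *Gtf3c2* had r of 0.39 with *Gpn1*, -0.42 with *Drc1* and -0.43 with *Rbks*. *Mpv17*, a protein of the inner mitochondrial membrane, had the reverse, with -0.37, 0.41 and 0.30. *Otof* was at 0.42, -0.31 and -0.22 for the same genes, and *Efr3b* at 0.27, -0.52 and -0.23. Some neighbours beyond these had values of like size. Among them were *Ppp1cb* at -0.42, 0.30 and 0.31, *Pcare* at 0.35, -0.34 and -0.25, and *Slc30a3* at 0.34, -0.41 and -0.18. Smaller values were also seen, such as those of *Zfp512* at 0.016, -0.17 and -0.12. All of these were picked out for display after their values had been seen, and no pattern of signs over the region was tested. Because *Gpn1* and *Drc1* are themselves negatively correlated, opposite signs are not independent of each other. Neighbouring genes of outbred rats also share inherited chromosome segments, and the part of genotype in these values was not tested.

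**Figure D3:**
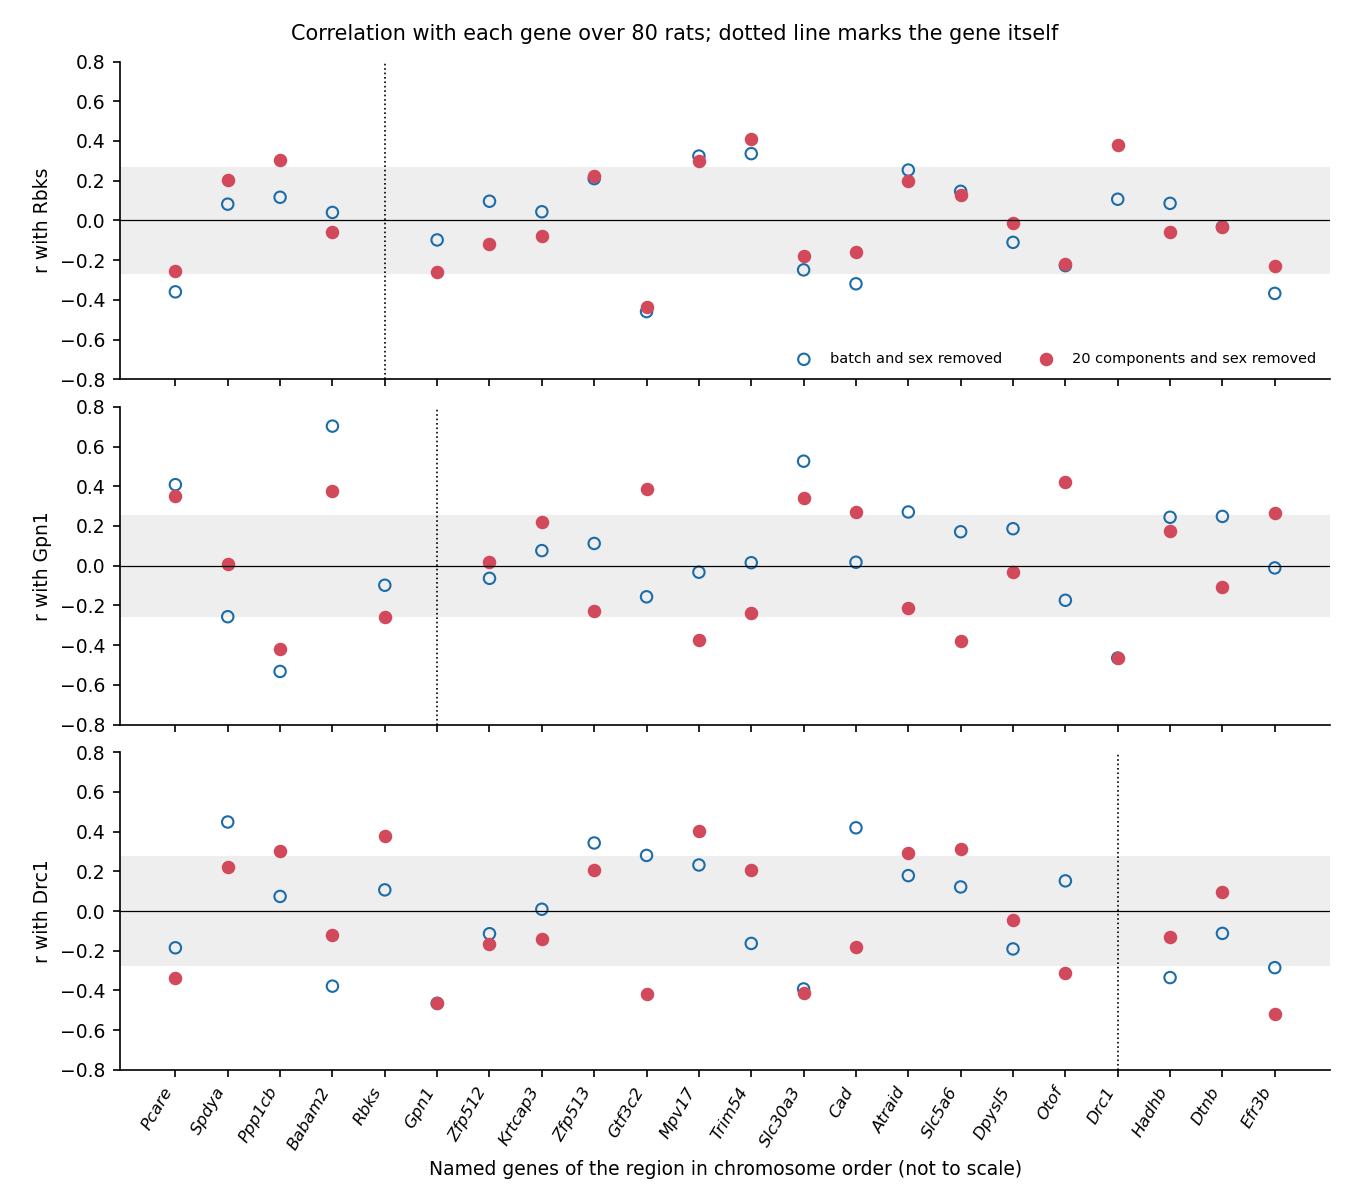
Pearson's r over 80 rats of 22 named genes of the region, in chromosome order and not to scale, with *Rbks* (top), *Gpn1* (middle) and *Drc1* (bottom), with batch and sex removed (open circles) or 20 principal components and sex removed (filled). The grey band holds the 95% of all genes with the smallest absolute r after 20 components, and 12 of 21 filled points lie outside it for *Gpn1*, 11 for *Drc1* and 5 for *Rbks*.

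Across the whole table the 3 genes had very different numbers of co-varying genes with batch and sex removed. *Gpn1* was associated with 6075 genes (2964 positively and 3111 negatively), *Drc1* with 3165 (1846 and 1319) and *Rbks* with 106 (92 and 14). With 20 components in place of batch limma called 0 genes for each of them (786, 1153 and 973 at an unadjusted p under 0.05). With recovered depth as a covariate the *Rbks* count fell to 12.

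Among named genes with a mean log2 value of at least 5, *Babam2* (0.70), *Pebp1*, a Raf kinase inhibitor (0.67), *Hspbp1*, a cofactor of Hsp70 (0.67), *Atp5f1a*, the alpha subunit of ATP synthase (0.66), and *Dipk1b* (0.66) were most like *Gpn1*. The largest negative r belonged to *Ptprd*, a receptor tyrosine phosphatase (-0.69), *Prpf39*, a splicing factor (-0.67), and *Cpsf6*, a subunit of the pre-mRNA cleavage factor (-0.65). All 8 passed limma, with adjusted p of 5.64e-08 or less. After 20 components r fell in size to 0.38 for *Babam2*, -0.38 for *Ptprd* and -0.26 for *Cpsf6*, and was between -0.089 and 0.071 for the other 5. The first genes of all had no name in the sources used here, ENSRNOG00000032134 at 0.71 and ENSRNOG00000012734 at -0.71.

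The named genes most like *Drc1* were *Fam227a* (0.76), *Noc2l* (0.74), *Nrbp2* (0.73), *Pagr1* (0.73) and *Sfxn2* (0.72), with adjusted p of 1.62e-10 or less by limma. *Noc2l* encodes a nucleolar protein that inhibits histone acetylation, *Pagr1* a subunit of a histone methyltransferase complex and *Sfxn2* a mitochondrial carrier. Most negative among named genes were the SNARE gene *Stx6* (-0.60), the synaptotagmin *Syt13* (-0.58) and *Cptp*, a ceramide-1-phosphate transfer protein (-0.58). After 20 components r was 0.49 for *Sfxn2*, 0.26 for *Fam227a*, 0.23 for *Nrbp2*, 0.16 for *Pagr1* and 0.048 for *Noc2l*. On the negative side it was -0.43 for *Stx6*, -0.41 for *Cptp* and -0.30 for *Syt13*. Unnamed genes came first on both sides, ENSRNOG00000006355 at 0.84 and ENSRNOG00000006997 at -0.64.

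For *Rbks* all values were smaller. *Hddc3* (0.43), *B2m*, the light chain of MHC class I (0.42), *Slc25a17*, a peroxisomal carrier (0.42), the ribosomal gene *Rpl7a* (0.42) and the spliceosomal gene *Snrpd2* (0.42) were the most positive named genes. *Gtf3c2* (-0.46), the calcium channel gene *Cacna1b* (-0.43) and the sodium-calcium exchanger gene *Slc8a2* (-0.43) were the most negative. Their adjusted p lay between 0.0208 and 0.0399 by limma. Counted over named and unnamed genes, *Hddc3* ranked 45 and *Snrpd2* 63 on the positive side. The first genes of all had no name, ENSRNOG00000030700 at 0.53 and ENSRNOG00000012568 at -0.47. After 20 components r was 0.065 for *Hddc3*, 0.32 for *B2m*, 0.35 for *Slc25a17*, 0.29 for *Rpl7a* and 0.21 for *Snrpd2*, and -0.43 for *Gtf3c2*, -0.24 for *Cacna1b* and -0.33 for *Slc8a2*. *Gtf3c2*, first of the named genes on the negative side, lies in the same region as *Rbks*, as *Babam2* does for *Gpn1*.

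The partners of each gene in its pathway could be followed only in part, since few had a name paired with an identifier. Of 37 further motile cilium genes 4 could be measured. *Dnah5*, an axonemal dynein heavy chain, was higher in batches 4 and 6 than in batches 2 and 3 by 0.88 ± 0.13, *Ccdc39*, which anchors the inner dynein arms, by 0.37 ± 0.06, and *Lrrc6*, a dynein assembly factor, by 0.26 ± 0.08 (log2 differences ± SE, adjusted p of 9.27e-09, 2.88e-08 and 0.0045 by limma). *Pifo* gave 0.18 ± 0.17 (adjusted p = 0.39 by limma). *Dnah5* and *Pifo* were low, with mean log2 values of 4.81 and 2.84. Thus 3 of 4 were higher and none lower, beside 28.8% and 26.6% of all genes, and 4 genes are too few to describe the list.

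Over rats within batch and sex, *Ccdc39* followed *Drc1* (r = 0.52, adjusted p = 4.97e-05 by limma) and so did *Dnah5* (0.31, adjusted p = 0.0358). *Pifo* (0.10) and *Lrrc6* (0.050) did not pass. Positive calls with *Drc1* covered 10.7% of all genes. The same 2 genes were also called with *Gpn1*, at -0.48 for *Ccdc39* (adjusted p = 0.000114 by limma) and -0.38 for *Dnah5* (adjusted p = 0.00388). Negative calls with *Gpn1* covered 18% of all genes. After 20 components r with *Drc1* was 0.20 for *Ccdc39* and 0.12 for *Dnah5*, and with *Gpn1* it was 0.25 and -0.15. The other 7 listed subunits of the nexin-dynein regulatory complex had no identifier paired with their name and were not analysed here. Among 6 ependymal markers only *Mia* had an identifier. It was listed at 0 in 2 rats, differed by 0.08 ± 0.19 in the same contrast (adjusted p = 0.757) and had r = 0.19 with *Drc1* (adjusted p = 0.266). The part of ependymal cells in the *Drc1* values was not tested.

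Of the 16 other ribose and pentose phosphate enzymes listed, 3 were measured. *Taldo1* (transaldolase) and *Pgm1* (phosphoglucomutase) were lower in batches 4 and 6 than in batches 2 and 3, with log2 differences of -0.27 ± 0.03 and -0.20 ± 0.03 (adjusted p of 3.11e-12 and 1.75e-09 by limma), and *Dera* gave -0.04 ± 0.05 (adjusted p = 0.471). In this contrast 26.6% of all genes were lower, and 3 enzymes are too few to describe the list. None of the 3 was associated with *Rbks* within batch and sex, with r of 0.075, 0.060 and 0.24 (adjusted p from 0.313 to 0.85). Of 29 other genes for RNA polymerase II assembly and subunits, *Pih1d1*, a chaperone adaptor, was the only one measured. It had r = 0.34 with *Gpn1* (adjusted p = 0.0128) and 0.068 after 20 components, and its difference in that contrast was -0.07 ± 0.05 (adjusted p = 0.246).

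Markers of other cells in the tissue were measured in the same fits. Batches 4 and 6 were higher than batches 2 and 3 in *Dcn* (meninges), *P2ry12* (microglia) and *Vwf* (endothelium), by 0.26 ± 0.08, 0.27 ± 0.06 and 0.11 ± 0.05, and lower in *C1qa* (microglia) and *Slc32a1* (inhibitory neurons), by -0.19 ± 0.05 and -0.42 ± 0.04. Over all genes 28.8% were higher and 26.6% lower in this contrast. *Slc22a6* (meninges), *Aqp1* (choroid plexus), *Aldh1l1* (astrocytes), *Neurod6* (excitatory neurons), *Vip* (inhibitory neurons) and *Hbb* (blood) did not pass, and no oligodendrocyte marker had an identifier. Within batch and sex, *Slc32a1* had r = 0.49 with *Gpn1* (adjusted p = 7.97e-05 by limma) and -0.39 with *Drc1* (adjusted p = 0.00518), but -0.044 and -0.13 after 20 components. *Vip*, the other inhibitory neuron marker, had r of 0.046 and -0.15 with these genes and did not pass. *Hbb* had r = 0.35 with *Gpn1* (adjusted p = 0.00717), and 0.28 after 20 components. Positive calls with *Gpn1* covered 17.2% of all genes, and negative calls with *Drc1* 7.65%. No marker passed with *Rbks*. The part of cell composition in these associations was not tested.

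**Figure D4:**
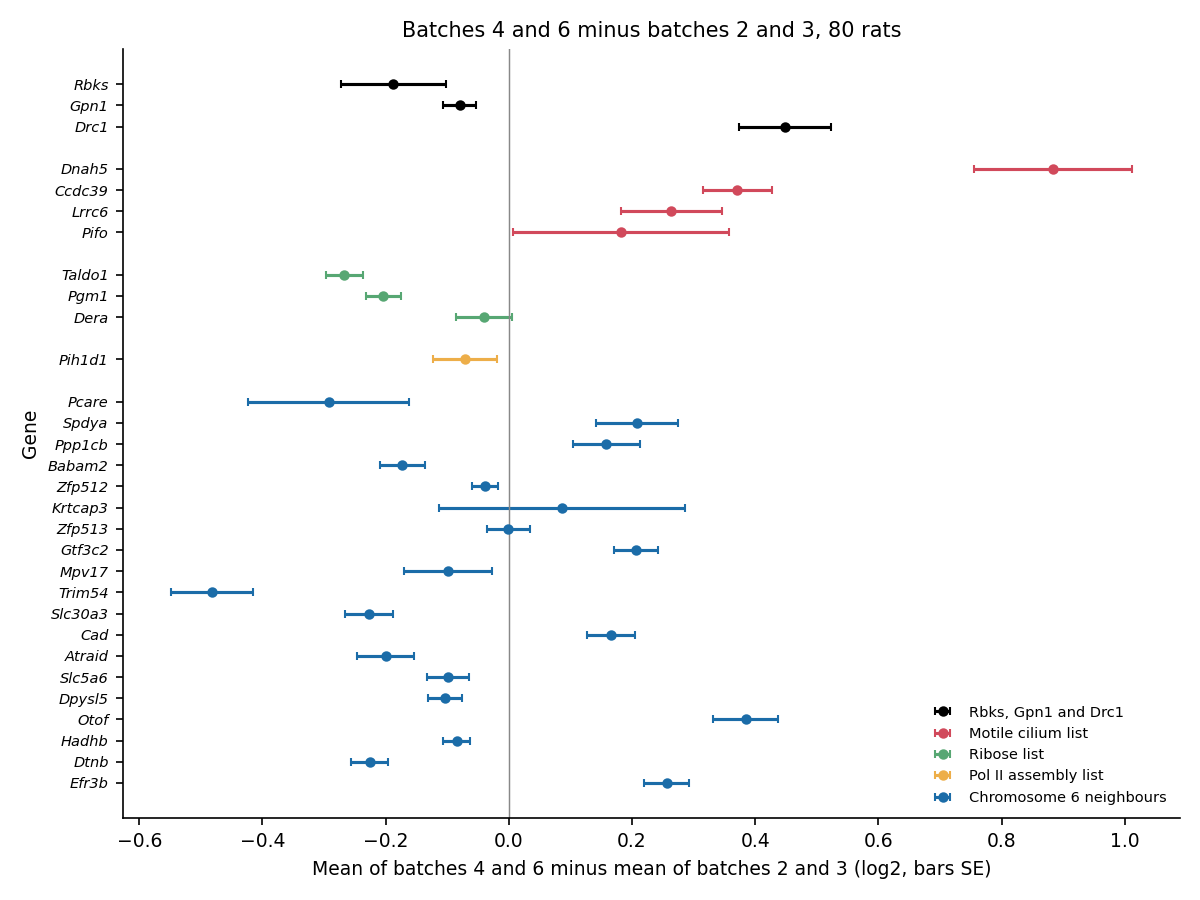
Log2 difference between the mean of batches 4 and 6 and the mean of batches 2 and 3 (points, bars SE, 80 rats, x axis) for *Rbks*, *Gpn1* and *Drc1*, the measured genes of the motile cilium, ribose and RNA polymerase II assembly lists and the 19 neighbours on chromosome 6. *Drc1* (0.45), *Dnah5* (0.88) and *Ccdc39* (0.37) lie to the right, *Gpn1* lies at -0.08, and the neighbours fall on both sides of 0, from -0.48 (*Trim54*) to 0.38 (*Otof*).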

How the data were processed

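RNA-Seq of polyA RNA from the prelimbic cortex of 86 labelled HS rats was taken up, and the 80 rats kept by the authors were analysed. Sex and rat batch came from the labels. The 6 other samples were removed by the authors for low read count, mismatched genotype or outlying expression. According to the methods and the submitters' processing notes, reads were trimmed with cutadapt, gene counts were estimated with RSEM against the Ensembl rat transcriptome (Rnor_6.0), and an upper quartile adjustment was made in DESeq2. The values deposited by the authors are log2 of these adjusted counts after a pseudocount of 1. Tool versions are not given in the sources used here.

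No count model was run. Batches, sex and associations were tested with limma 3.58.1 in R 4.3.3 (eBayes with a variance trend, Benjamini-Hochberg over all genes, threshold 0.05), which was tested on simulated data. Correlations and the Brown-Forsythe statistic used 100000 permutations in Python 3.11.15 (numpy 2.4.6, scipy 1.17.1, pandas 2.3.3). With batch and sex removed, rats were permuted within batches. Library scaling factors were recovered from the whole numbers that rounding skipped or repeated, and 79 of 80 factors stood clear. This depth is an estimate and served only as a covariate and for counting error. Precision is limited for *Rbks*, with a median of 67.5 recovered reads per library. The p-values treat rats as independent.

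Identifiers were paired with names for 3292 of 17250 genes (19.1%) from the study's tables, and RefSeq GRCr8 gave only gene order and promoters. Its tables hold no Ensembl identifiers. Named genes were the 3 genes, the 5 most positive and 3 most negative named genes by adjusted r for each (mean log2 of at least 5), the 3 neighbours within 1 Mb with the largest absolute r and those next to each gene, and up to 4 genes of each list by the batch contrast and 3 by r. The genes, lists and contrasts were chosen with earlier results of these data known. Alternatives covered scaling, pseudocount, transformation, filter, depth, variance trend, principal components, sex and single batches.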

Additional observations from a re-analysis of the deposited data

How the results depend on the processing

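Of 198 values recomputed for 28 results under the alternatives, 164 were unchanged. For tests this meant the same side of the threshold, and the same direction where the test had one. For counts of called genes it meant a count of like size. For the batch F-test of *Rbks* the adjusted p became 0.0365 with depth as a covariate. Its mean of batches 4 and 6 minus that of batches 2 and 3 passed at -0.25 with depth as a covariate and at -0.19 among genes with a mean log2 value of at least 5 (fewer genes tested). That of *Gpn1* did not pass in males only (-0.075) or females only (-0.096), with fewer rats. In females only the *Gpn1* F-test had an adjusted p of 0.139. By pair of batches, in males and in females, *Rbks* lost batch 6 against 3 (adjusted p of 0.471 and 0.0982), *Gpn1* lost the same pair (0.264 and 0.126), and *Drc1* lost batch 6 against 4 (0.134 and 0.385) and 4 against 3 (0.0947 and 0.0671), and in females also 6 against 2 (0.319). Over all genes 6068 were called in females only, beside 9553. Genes associated with *Rbks* numbered 14 after the rank-based transformation, 163 at a mean log2 of at least 5 and 12 with depth as a covariate, beside 106, and with 20 components the counts were 0 for *Rbks*, 0 for *Gpn1* and 0 for *Drc1*. The pooled r of *Rbks* and *Gpn1* changed sign without the 2 farthest rats (-0.021), in batches 3, 4 and 6 (-0.21, -0.015 and -0.28), outside batch 4 (-0.025) and in males (-0.021), and that of *Rbks* and *Drc1* without the 2 farthest rats (0.025) and in batches 3 and 6 (0.44 and 0.34). The adjusted r of *Rbks* and *Gpn1* was 0.23 in batch 2 and -0.26 with 20 components. For *Rbks* and *Drc1* it was -0.070 in batch 2, 0.44 in batch 3, -0.027 in batch 4 and 0.38 with 20 components. The permutation p-values of the residuals on 20 components do not count the degrees of freedom used by them, so limma's were given above. For *Gpn1* and *Drc1* r did not pass in batches 2, 3 and 6, pooled (-0.26, -0.37 and -0.13) or adjusted (-0.37, -0.38 and -0.15), with fewer rats, and the adjusted r did not pass outside batch 4 (-0.26), an alternative chosen after seeing the data. Other causes were not tested. *Drc1* kept its calls in the batch F-test, the contrast of batches 4 and 6 with 2 and 3 and the spread test in every alternative run for them.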
